A study of Mus musculus with 130 samples.

Results

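The groups compared here are the 20 mouse strains with the most and the 20 strains with the least hepcidin transcript in the liver, with 73 ranked strains between them. They make up 40 of the 130 libraries of the series. The members were chosen by measured Hamp, the hepcidin gene, in TPM (transcript abundance scaled for length and library total), so Hamp itself is described and not tested. Every other gene was compared through its estimated counts. All 40 mice were male and ate chow for 4 weeks and then a diet with 2% carbonyl iron (20000 ppm) for 6 weeks. The labels give no age. Each strain is 1 mouse, so strain and mouse cannot be told apart. The second mouse of 129X1/SvJ and the mouse of BXD65/RwwJ of the panel were left out of the ranking. A separate diet study of 15 C57BL/6J males, 3 on each of chow, 50 ppm iron, 500 ppm iron, 2% carbonyl iron and 2% carbonyl iron with cellulose as the fiber, served as a point of reference. The high group held 13 BXD strains, 4 AXB/BXA strains and 3 other inbred strains. Its AXB19/PgnJ and AXB19a/PgnJ share a line number, may be closer kin than other members, and each counted as 1 strain. The low group held 14 BXD strains, BXH2/TyJ and 5 other inbred strains, and no AXB/BXA strain. BXD and AXB/BXA are recombinant inbred families, so strains of a family share their 2 parental genomes and are not unrelated. Family make-up did not pass the threshold between the groups (Fisher-Freeman-Halton exact test, two-sided p = 0.140, n = 40).

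Hepcidin is the peptide hormone by which the liver limits iron entry into blood. It binds ferroportin, the iron exporter of gut cells and macrophages, and causes it to be degraded. Hepatocytes raise Hamp when BMP6 and BMP2, secreted by sinusoidal endothelial cells, act on BMP receptors and the co-receptor hemojuvelin, which signal through SMAD proteins. TMPRSS6 cleaves hemojuvelin and lowers the signal, and interleukin-6 raises Hamp through STAT3. Mice carry a second copy, Hamp2, beside Hamp. Its peptide differs in the mature part and is not known to share the iron-lowering action of hepcidin.

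Hamp lies on the minus strand at chr7:30942368-30944032 and Hamp2 on the same strand at chr7:30922372-30924681 (GRCm38, GENCODE M21). The copies are near-identical, so the split of the estimated counts between them is uncertain.

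The bases before both starts are shown because the low group is set apart by how much of each copy its livers held. The 250 bases before each start (RefSeq, GRCm38.p6) were searched on both strands for GGCGCC, the core of the BMP response element known in hepcidin promoters, and for TTCTTGGAA, the known STAT site. Matches are in capitals. The Hamp window is chr7:30944030-30944279 and the Hamp2 window chr7:30924182-30924431, both read on the minus strand. RefSeq places both starts inside the GENCODE gene limits, so the Hamp2 window lies within the gene as GENCODE draws it.
Hamp: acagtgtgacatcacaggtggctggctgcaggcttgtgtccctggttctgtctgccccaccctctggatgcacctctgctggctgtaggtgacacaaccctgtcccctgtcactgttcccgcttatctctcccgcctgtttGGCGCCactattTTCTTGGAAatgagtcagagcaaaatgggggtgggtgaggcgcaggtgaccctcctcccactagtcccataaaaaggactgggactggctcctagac
Hamp2: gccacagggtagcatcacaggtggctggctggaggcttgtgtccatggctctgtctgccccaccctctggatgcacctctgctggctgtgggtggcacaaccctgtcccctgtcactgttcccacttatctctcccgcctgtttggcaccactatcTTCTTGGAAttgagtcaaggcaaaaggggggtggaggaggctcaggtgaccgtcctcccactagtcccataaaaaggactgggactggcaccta
The Hamp window held both motifs and the Hamp2 window held TTCTTGGAA alone. Over 32851 mouse promoter windows of the same length, 9.59% held GGCGCC and 0.365% held TTCTTGGAA. These are sequences of the C57BL/6J reference, and alleles of the other strains were not analysed here.

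Among the 20 high strains Hamp ran from 4918 TPM to 6348 TPM, with a median of 5186 TPM. Among the 20 low strains it ran from 1020 TPM to 3161 TPM, with a median of 2804 TPM. These values chose the groups, and the ratio of the group means was 2.02. BXD67/RwwJ held the most Hamp and DBA/2J the least. At the upper limit BXD85/RwwJ, the last strain taken, had 4918 TPM, and AXB4/PgnJ, the next, had 4906 TPM. At the lower limit BXD62/RwwJ, the first strain taken, had 3161 TPM and CXB12/HiAJ, just outside, 3278 TPM. The limits fall within a continuous range, as the plot of strains by rank shows. Membership depended on the unit. Ranked by Hamp counts scaled to the library total in place of TPM, 12 of the 20 high and 17 of the 20 low strains stayed in their group. The left-out mouse of 129X1/SvJ had 5709 TPM against 6188 TPM in its ranked mouse, the one pair of mice from a single strain.

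**Figure D1:**
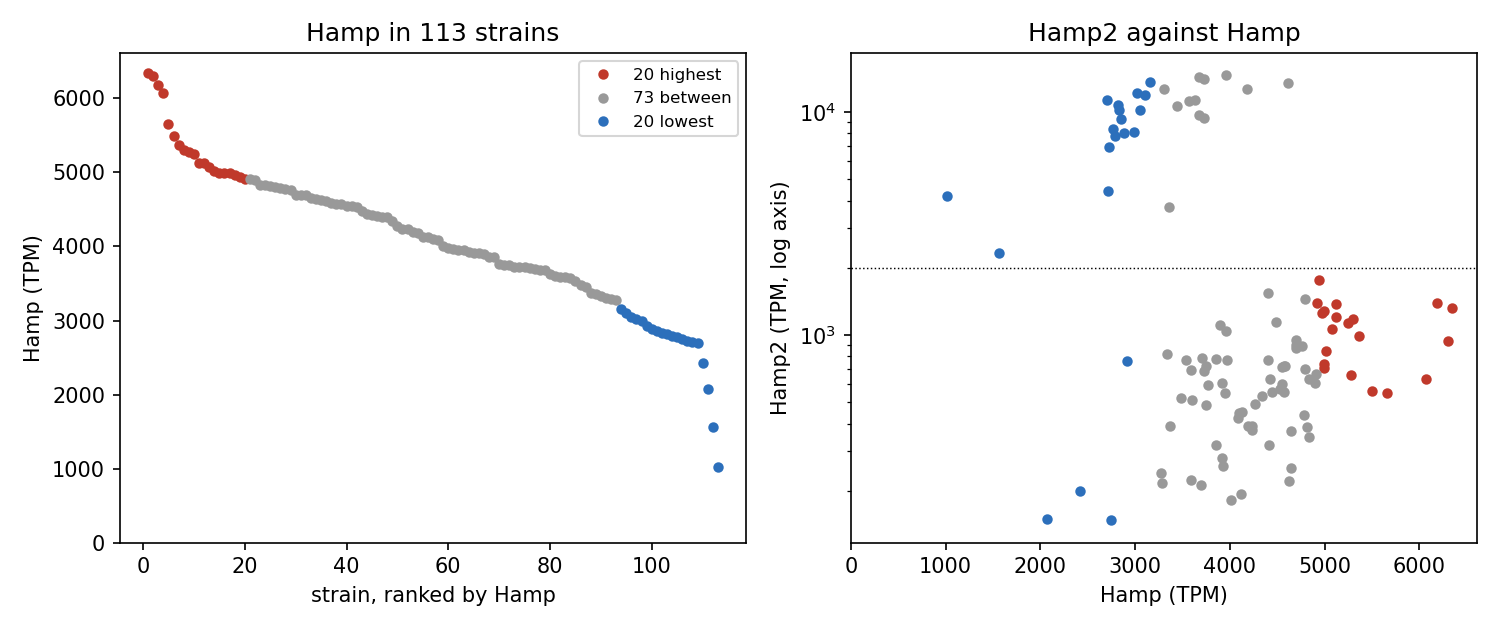
Left, Hamp (TPM) of the ranked strains, 1 point per strain, with the 20 highest in red and the 20 lowest in blue. Right, Hamp2 (TPM, log axis) against Hamp (TPM) for the same strains, with a dotted line at 2000 TPM. The 20 high strains all lie below the line and 16 of the 20 low strains lie above it.

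Hamp2 ran opposite to Hamp between the groups, a direction that rested on 16 low strains. It lay between 550.1 TPM and 1759 TPM in the high strains, with a median of 1096 TPM. In the low strains it lay between 147 TPM and 13561 TPM, with a median of 8039 TPM. In 16 of the 20 low strains Hamp2 was above 2000 TPM, against 0 of the 20 high strains and 12 of the 73 between. The 4 other low strains were SJL/J, BTBR T<+> tf/J, BXD19/TyJ and BXH2/TyJ, at 149 TPM, 147 TPM, 766 TPM and 199.6 TPM. Apart from BXD19/TyJ, those lay below every high strain, so Hamp2 in the low strains was either above or mostly below the high range. Of the 28 strains above 2000 TPM, 24 were BXD strains, and NZB/BlNJ, DBA/2J, RIIIS/J and NZW/LacJ made up the rest. None of the 20 AXB/BXA strains was above it. On counts scaled to the library total (CPM, with TMM factors), edgeR gave a log2 difference of -2.82 (SE 0.39, adjusted p = 2.1e-05), a level lower in the high strains. Since the split of counts between the copies is uncertain, Hamp2 may not be independent of the Hamp values that chose the groups. Its p-value is to be read with that limit. With every strain above 2000 TPM of Hamp2 left out and the rest ranked again, the difference turned to 1.03 (SE 0.23, adjusted p = 0.069), a level higher in the high strains. The 2000 TPM limit was chosen after the values were seen.

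The sum of both copies reversed the order of the groups. Hamp plus Hamp2 came to 6419 ± 542 TPM (SD, n = 20) in the high strains and to 9693 ± 4727 TPM (SD, n = 20) in the low strains. Ranked by the sum, 9 of the 20 low strains fell among the 20 highest and 5 stayed among the 20 lowest. None of the 20 high strains stayed among the 20 highest.

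Few other genes differed between the groups. Of 13226 genes tested, 12 were called at an adjusted p under 0.05 (0.0907% of genes), 7 higher in the high strains (0.0529%) and 5 lower (0.0378%). An unadjusted p under 0.05 was reached by 1190 genes (9%). Most called genes lay beside Hamp: 7 of 133 genes tested within 5 Mb were called (5.26%), against 5 of 13093 elsewhere (0.0382%). On chromosome 7 beyond that window edgeR called 0 of 900 genes, with 81 at an unadjusted p under 0.05.

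**Figure D2:**
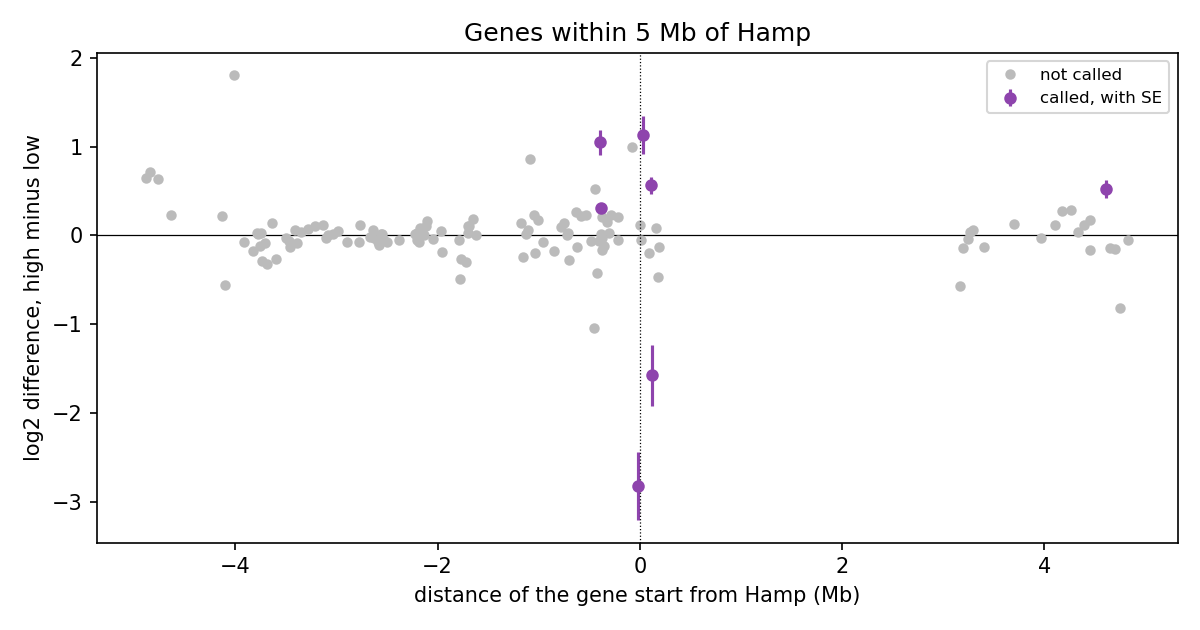
Log2 difference between high and low hepcidin strains against the distance of each gene's start from Hamp in Mb, for 133 genes on chromosome 7. Purple points are the 7 called genes with their SE, of which Hamp2 is lowest at -2.82.

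Hspb6, a small heat shock protein 0.39 Mb from Hamp, ranged from 4.60 to 9.72 CPM in the high strains, with a median of 6.51 CPM. In the low strains it ranged from 1.88 to 8.03 CPM, with a median of 3.04 CPM. It was higher in the high strains by 1.05 (log2, SE 0.14, adjusted p = 2.1e-05), and 18 of the 20 low strains lay below every high strain. Fxyd1, a regulator of the sodium pump, ranged from 70.2 to 118 CPM in the high strains (median 94.8) and from 26.5 to 106 CPM in the low strains (median 63.6). The log2 difference was 0.56 (SE 0.09, adjusted p = 0.000776). The ranges overlapped, with 16 low strains below every high strain.

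Fam187b, the called gene nearest to Hamp after Hamp2 at 0.031 Mb, had medians of 3.13 CPM in the high strains (1.11 to 5.54) and 0.995 CPM in the low strains (0.51 to 4.06). The log2 difference was 1.13 (SE 0.22, adjusted p = 0.00874), and 12 low strains lay below every high strain. Lgi4, a secreted protein known from the myelination of peripheral nerves, was the other called gene besides Hamp2 that was lower in the high strains near Hamp. It ranged from 0.139 to 3.46 CPM (median 1.11) in the high strains and from 0.059 to 10.7 CPM (median 2.70) in the low strains. The log2 difference was -1.57 (SE 0.34, adjusted p = 0.0470), close to the threshold and at low counts.

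The remaining neighbours moved less. Psenen, a subunit of the gamma-secretase complex, had medians of 20.7 CPM in the high strains (16.7 to 25.1) and 17.04 CPM in the low strains (14.1 to 22.03). Its log2 difference was 0.31 (SE 0.05, adjusted p = 0.000776). Nudt19, a hydrolase of coenzyme A 4.60 Mb from Hamp, had medians of 44.3 CPM (23.1 to 56.7) and 31.8 CPM (18.8 to 41.5). Its log2 difference was 0.53 (SE 0.10, adjusted p = 0.00874). Both pairs of ranges overlapped. Hspb6, Psenen, Nudt19, Lgi4, Hamp2 and Hamp itself overlap genes on the opposite strand in the annotation. The strand used in counting is not given in the sources used here, so their reads and those of the partner cannot be told apart.

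Called genes away from Hamp were led by Kl. Kl encodes klotho, the co-receptor for the phosphate hormone FGF23, best known from the kidney, and lies at chr5:150952607-150993817. It ranged from 0.718 to 2.67 CPM in the high strains (median 1.81) and from 0.423 to 1.43 CPM in the low strains (median 0.662). Its log2 difference was 1.29 (SE 0.15, adjusted p = 2.53e-06), the smallest p in the fit. In all, 17 of the 20 high strains lay above every low strain, and all 20 low strains lay below the median of the high strains. Kl counts in liver were low throughout.

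Taok3, a protein kinase on chromosome 5, had medians of 90.8 CPM in the high strains (69.3 to 115.2) and 75.2 CPM in the low strains (53.9 to 88.7). Its log2 difference was 0.30 (SE 0.06, adjusted p = 0.0281), with 13 high strains above every low strain. Taok3 was called in 10 of 20 alternative fits, and its adjusted p was 0.957 in the BXD strains alone. Gm1840, a processed pseudogene on chromosome 8, was chosen for naming after its values were seen. It ranged from 0 to 9.60 CPM in the high strains (median 0.577) and from 0.296 to 67.2 CPM in the low strains (median 35.4). The log2 difference was -4.14 (SE 0.53, adjusted p = 1.01e-05), and 17 of the 20 low strains lay above every high strain. Reads of a pseudogene may belong to its parent gene, so this value is uncertain.

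The last pair of calls, the pseudogenes Gm43743 and Gm13340, rested on 1 strain and are also named after their values were seen. In NZB/BlNJ they had 363.6 CPM and 3708 CPM, whereas the next highest low strain had 2.66 CPM of Gm43743. Without NZB/BlNJ, 9 genes were called in the comparison and neither pseudogene was among them.

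Several called genes followed Hamp2 also in the 73 strains that were in neither group. Kl ran from 0.208 to 0.935 CPM in the 12 middle strains above 2000 TPM of Hamp2 (median 0.534) and from 0.637 to 3.80 CPM in the other 61 (median 1.77). Fam187b had medians of 1.07 CPM and 2.79 CPM in the same strains, and Hspb6 had medians of 2.94 CPM and 6.71 CPM. Gm1840 had medians of 37.5 CPM and 0.864 CPM, and Lgi4 had medians of 3.32 CPM and 0.463 CPM. Taok3 did not run this way: its medians were 90.8 CPM and 81.5 CPM, the opposite order to that between the groups. Apart from NZW/LacJ the 12 were all BXD strains, whereas the 61 came from every family, and family was not taken into account. These values are a description with no test, since the limit was drawn on these strains.

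**Figure D3:**
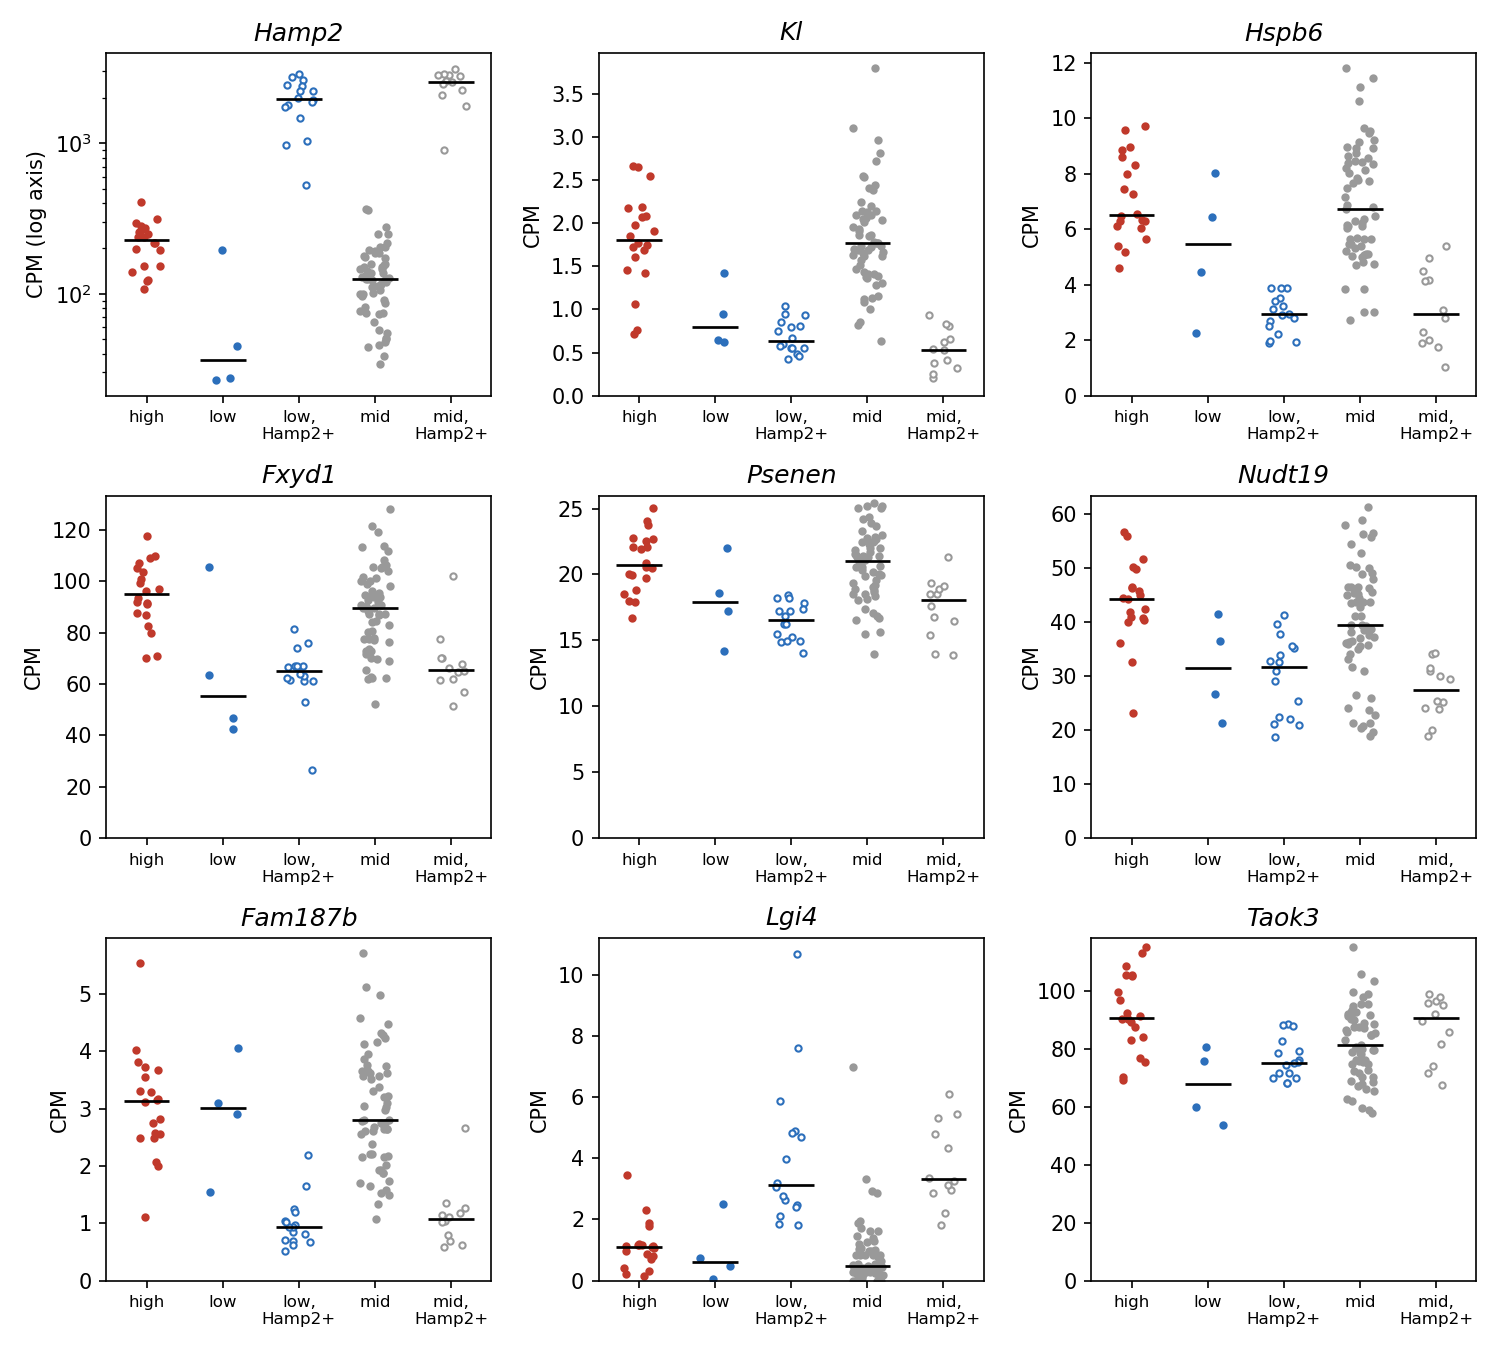
CPM of 9 called genes, 1 point per strain, with black bars at the medians (Hamp2 on a log axis). Red marks the 20 high strains, blue the 20 low strains and grey the 73 between, and open points marked Hamp2+ are strains above 2000 TPM of Hamp2. Kl, Hspb6 and Fam187b lie lower, and Lgi4 higher, in the open points of both the low and the middle strains.

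When the 28 strains above 2000 TPM of Hamp2 were left out and the other 85 ranked again, the high group stayed the same 20 strains and 4 of the low strains remained low. The ratio of the mean Hamp levels was then 1.59, a smaller contrast. edgeR called 0 of 13191 genes, with 1833 at an unadjusted p under 0.05, more than the 1190 of 13226 between the original groups. DESeq2 and limma were not run on these strains. Within the BXD strains alone, 13 high against 14 low, 9 genes were called, 7 of them among the 12. The part played by the DNA around Hamp was not tested.

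The signalling genes upstream of Hamp were close between the groups, and the BMP targets stood higher in the high strains without passing the test. Of the 9 listed BMP/SMAD targets, 0 were called by edgeR. All 9 had higher fitted values in the high strains, and 8 of 9 had an unadjusted p under 0.05, where 3.58% of all genes did in that direction. The median log2 difference of the list was 0.43, against -0.01 over all genes tested.

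Among the feedback inhibitors, Smad6 ranged from 9.99 to 29.2 CPM in the high strains (median 16.7) and from 5.57 to 20.4 CPM in the low strains (median 12.5). The log2 difference was 0.46 (SE 0.12, adjusted p = 0.276). Smad7 had medians of 57.2 CPM (29.5 to 95.04) and 37.4 CPM (15.6 to 71.99), a log2 difference of 0.44 (SE 0.15, adjusted p = 0.478). Smad9 had medians of 63.0 CPM and 44.1 CPM (log2 0.43, adjusted p = 0.360), and all 20 high strains lay above the low median. Bambi, a decoy receptor, had the smallest difference at 0.09 (SE 0.11).

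The Id genes, repressors of helix-loop-helix factors and direct SMAD targets, ran the same way. Id1 had medians of 34.2 CPM in the high strains (18.97 to 64.6) and 23.1 CPM in the low strains (7.10 to 55.5), a log2 difference of 0.41 (SE 0.17, adjusted p = 0.516). Id2 had medians of 167 CPM and 119 CPM (log2 0.48, adjusted p = 0.357), Id3 of 46.5 CPM and 33.5 CPM (log2 0.40, adjusted p = 0.5002), and Id4 of 11.2 CPM and 7.81 CPM (log2 0.66, adjusted p = 0.464). Atoh8, a transcription factor that acts on the Hamp promoter, had medians of 49.1 CPM and 36.4 CPM (log2 0.30, adjusted p = 0.550). For every one of these genes the groups overlapped.

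The ligands, receptors, sensors and transducers had smaller values. edgeR called 0 of the 18 genes tested on that list, and the median log2 difference was 0.04. An unadjusted p under 0.05 was reached by 2, both higher (3.58% of all genes did in that direction). Bmp6 ranged from 15.7 to 36.2 CPM in the high strains (median 24.8) and from 7.26 to 35.3 CPM in the low strains (median 22.3), a log2 difference of 0.19 (SE 0.13, adjusted p = 0.657). Bmp2 differed by 0.13 (SE 0.14). Hemojuvelin, listed as Hfe2, had medians of 85.3 CPM and 82.1 CPM (log2 0.13, SE 0.11). Tmprss6 had medians of 383.8 CPM and 372.3 CPM (log2 0.15, SE 0.11). Tfr2 and Hfe, sensors of transferrin-bound iron, differed by 0.01 (SE 0.08) and 0.10 (SE 0.07).

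Among the receptors, Bmpr1a had an unadjusted p of 0.041 (log2 0.10, adjusted p = 0.547), while Acvr1, Bmpr2 and Acvr2a differed by 0.04, 0.01 and -0.02. The signal transducers Smad1, Smad5 and Smad4 differed by -0.01, 0.04 and -0.02. Furin and Spint2, which act on hemojuvelin cleavage, differed by 0.02 and 0.11, and Neo1 by 0.13. Fkbp1a, which binds BMP type I receptors, differed by -0.10. Fgl1, a secreted antagonist of BMP signalling, differed by -0.31 (SE 0.23). Erfe, the erythroid hormone that lowers Hamp, was too low to be tested and reached 7.98 CPM in BTBR T<+> tf/J.

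**Figure D4:**
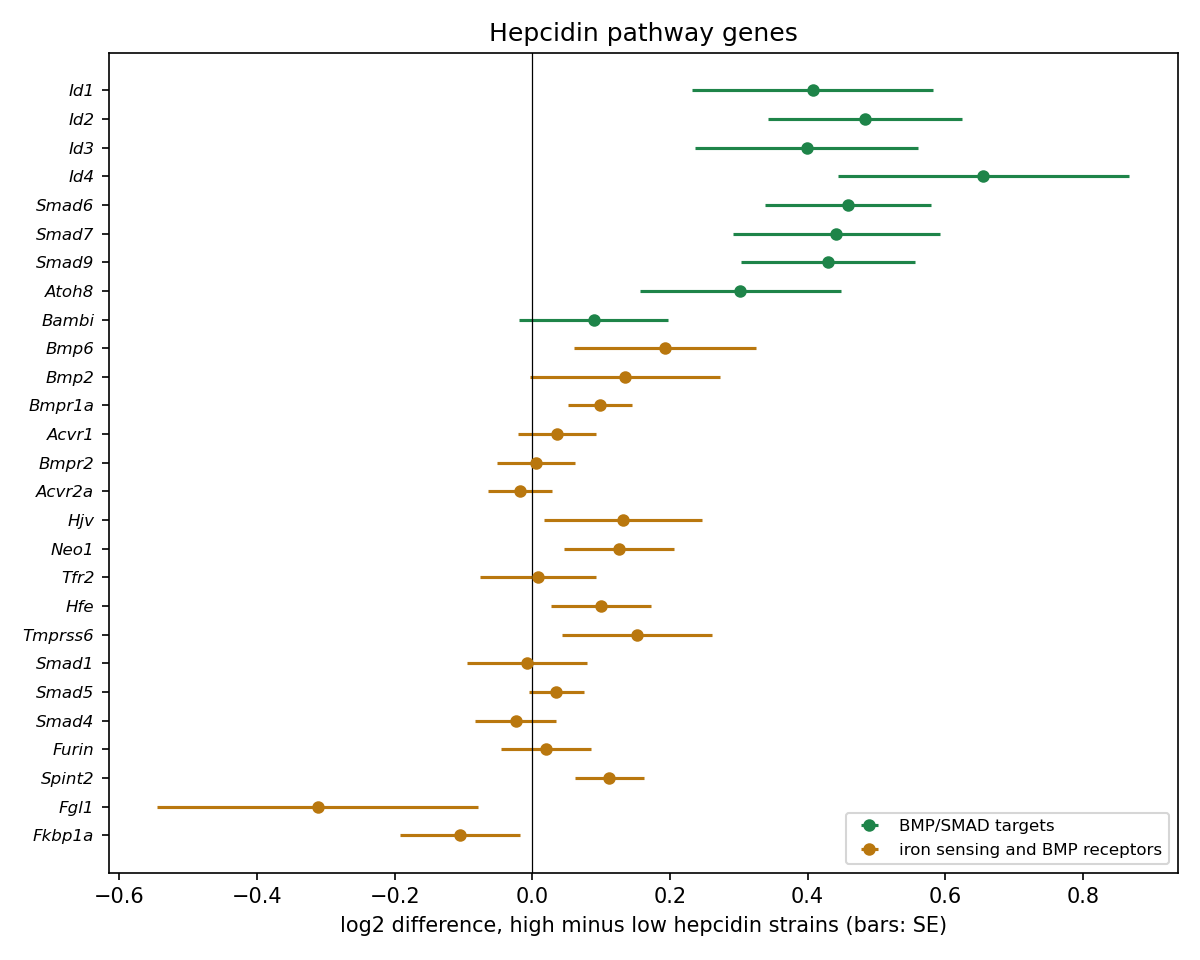
Log2 difference between high and low hepcidin strains, with SE bars, for 9 BMP/SMAD targets (green) and 18 ligands, receptors, sensors and transducers (brown). The targets lie between 0.09 and 0.66, and the others between -0.31 and 0.19.

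The median of the BMP targets kept this direction in other fits, but only the 73 middle strains shared no library with the groups. The BXD strains fitted were members of the same high and low groups. The fit without strains of high Hamp2 kept the same 20 high strains and 4 of the low strains. The same direction in those fits is therefore not independent of the first comparison. Within the BXD strains the median was 0.27, with 9 of 9 higher and 3 of 9 at an unadjusted p under 0.05. With the strains of high Hamp2 left out it was 0.25, with 8 of 9 higher. In the 73 middle strains all 9 had a positive slope on log2 Hamp, with a median of 0.41 per doubling against -0.00 over all genes. An unadjusted p under 0.05 was reached by 1 of 9 (3.56% of all genes did in that direction).

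Acute phase genes, the hepatic response to interleukin-6, had mostly lower values in the strains with more Hamp, and edgeR called none. Of 26 tested, 23 had lower values in the high strains, and 6 had an unadjusted p under 0.05 in that direction (5.41% of all genes did). The list's median log2 difference was -0.25. Lcn2, an iron-siderophore binding protein, ranged from 12.2 to 318 CPM in the high strains (median 61.9) and from 6.66 to 1570.3 CPM in the low strains (median 95.3). Its log2 difference was -1.77 (SE 0.55, adjusted p = 0.437). Saa2, a serum amyloid, ranged from 2.66 to 119 CPM and from 2.91 to 586 CPM (log2 -1.87, SE 0.62, adjusted p = 0.471). The groups overlapped, and the highest Lcn2 values were in NZB/BlNJ and 1 other low strain. With the strains of high Hamp2 left out the list's median was 0.11, with 18 of 26 higher, the opposite direction. In the 73 middle strains the list's median slope on log2 Hamp was -0.29, with 18 of 26 negative, the direction seen between the groups. There 2 genes fell at an unadjusted p under 0.05 (3.75% of all genes did in that direction). The direction of the list thus depended on the set of strains.

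edgeR called 0 of 29 genes for iron storage, transport and heme. An unadjusted p under 0.05 was reached by 2 with higher and 3 with lower values (3.58% and 5.41% of all genes). The median log2 difference was -0.03. Fbxl5, which targets the iron regulatory protein IRP2 for degradation, had medians of 31.4 CPM and 28.7 CPM (log2 0.14, SE 0.05, adjusted p = 0.5002). Fech, the last enzyme of heme synthesis, had medians of 171 CPM and 163 CPM (log2 0.12, SE 0.06). Neither passed the test.

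In the metabolic lists 0 genes were called by edgeR. All 11 lipogenesis genes had higher values in the high strains, with a median log2 difference of 0.34. An unadjusted p under 0.05 was reached by 2 of them (3.58% of all genes did in that direction). Fasn, fatty acid synthase, ran from 237 to 3448 CPM in the high strains and from 121 to 2187 CPM in the low strains (log2 0.64, SE 0.32, adjusted p = 0.553), and Me1, malic enzyme, differed by 0.47 (SE 0.18). Of 12 gluconeogenesis and fasting genes 8 had higher and 4 lower values in the high strains, with a median of 0.19. An unadjusted p under 0.05 was reached by 3, all higher. Among them Cyp4a10, a fatty acid hydroxylase under PPARA, differed by 0.90 (SE 0.37) and Cpt1a, which admits fatty acids to mitochondria, by 0.29 (SE 0.13). In the 73 middle strains all 12 slopes on log2 Hamp were negative, with a median of -0.72, the opposite sign. The slopes of Cyp4a10 and Cpt1a were -1.58 and -0.44. Of 21 cholesterol synthesis genes and 16 clock genes, 0 had an unadjusted p under 0.05.

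NRF2 targets and stress genes also had 0 calls by edgeR, with 5 of 20 and 2 of 14 at an unadjusted p under 0.05 (9% of all genes). Slc7a11, the cystine carrier, differed by -1.11 (SE 0.35, adjusted p = 0.456), with medians of 2.54 CPM and 2.39 CPM that ran the other way. Its highest low strain, BXH2/TyJ, had 50.7 CPM against 9.29 CPM in the next. Ddit3 and Hspa5, of the unfolded protein response, differed by -0.50 (SE 0.18) and -0.34 (SE 0.14).

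Male-biased and proliferation genes gave large fitted differences, with the highest values in a few low strains. Of 15 male-biased genes, 8 had an unadjusted p under 0.05, all lower in the high strains (5.41% of all genes did in that direction). The list median was -1.54, and 0 were called by edgeR. Mup21, a major urinary protein, had medians of 1.20 CPM and 0.937 CPM, with up to 311.6 CPM in BXD14/TyJ. Mup11 reached 1341 CPM in the same strain. The Mup genes are near-identical copies, so their counts are uncertain. Of 16 female-biased genes 13 had higher values in the high strains, with a list median of 0.42, and edgeR called 0. An unadjusted p under 0.05 was reached by 2 with higher and 1 with lower values (3.58% and 5.41% of all genes). Cyp3a44, a cytochrome P450, had medians of 10.04 CPM in the high strains and 2.12 CPM in the low strains (log2 1.83, SE 0.70, adjusted p = 0.5002). Of 13 proliferation genes 6 were lower and 1 higher at an unadjusted p under 0.05 (5.41% and 3.58% of all genes). Mki67 differed by -1.60 (SE 0.47, adjusted p = 0.364), with medians of 5.07 CPM and 6.84 CPM, and 168 CPM in BTBR T<+> tf/J. In the 73 middle strains the median slopes of these lists had the opposite sign, 1.22 for male-biased, -0.08 for female-biased and 0.19 for proliferation genes.

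Markers of other cells were read for the same 40 libraries. In bulk liver, fewer cells of a type and less RNA per cell cannot be told apart. All 10 hepatocyte markers were tested, 0 were called by edgeR, and their summed level ran from 90388 to 146997 CPM in the high strains and from 78028 to 159557 CPM in the low strains. Of 9 pericentral hepatocyte markers 8 had higher values in the high strains, with a median log2 difference of 0.30, and edgeR called 0. Among them Cyp2e1, a cytochrome P450, had an unadjusted p of 0.0202 (log2 0.50, adjusted p = 0.5002). Of 9 periportal markers 3 had higher values, with a median of -0.07 and none at an unadjusted p under 0.05. All 11 sinusoidal endothelial and 15 Kupffer cell markers tested were uncalled, with medians of -0.05 and 0.13 and none at an unadjusted p under 0.05. All 7 erythroid markers tested were lower in the high strains, with summed levels of 9.72 to 1815 CPM (median 242) and 16.7 to 2633 CPM (median 628). Slc4a1, the red cell anion exchanger, differed by -2.93 (SE 0.79, adjusted p = 0.276) and reached 204 CPM in BTBR T<+> tf/J. In the 73 middle strains the median slope of the erythroid markers was 2.00, the opposite sign. Median slopes there were also of opposite sign for the Kupffer cell (-0.52, with 14 of 15 negative), pericentral (-0.15) and periportal (0.24) markers. The same held for neutrophil markers, with a median of -1.22 between the groups and a median slope of 1.58, with 8 of 8 positive. Lymphocyte markers (-0.10 and 0.18) and stellate cell and fibroblast markers (0.02 and -0.12) changed sign as well. Neutrophil markers summed to 2.51 to 118 CPM (median 5.47) and 3.16 to 169.6 CPM (median 13.3), highest in BXH2/TyJ. Lymphocyte markers summed to 6.20 to 23.1 CPM and 4.65 to 175 CPM, highest in NZB/BlNJ. No marker of these lists was at 0 in all 40 libraries. Their part in the values above was not tested.

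Across the 73 middle strains, which are the middle of the same Hamp ranking, the slope of each gene on log2 Hamp was tested over 13888 genes. edgeR called 2 (0.0144%), both falling as Hamp rose, with 1015 at an unadjusted p under 0.05 (7.31%; 3.56% rising and 3.75% falling). Both are named after their values were seen. No gene was called both here and between the groups. Cidec, a lipid droplet protein, had a slope of -3.45 per doubling of Hamp (SE 0.70, adjusted p = 0.0361). Between the groups it differed by 0.16 (SE 0.40), with medians of 3.29 CPM and 2.83 CPM. Dnah17, a dynein heavy chain, had a slope of -7.07 (SE 0.97) that rested on BALB/cByJ, at 153 CPM against 1.97 CPM in the next strain. Without BALB/cByJ its slope was 0.27, and 0 genes were called by edgeR, with 1015 at an unadjusted p under 0.05. Kl had a slope of 1.61 (SE 0.48, adjusted p = 0.340) and Hamp2 of -4.64 (SE 1.34, adjusted p = 0.339), in the same direction as between the groups and short of the threshold. For Hamp2 the uncertain split of counts with Hamp applies here too.

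In C57BL/6J, Bmp6 and most of the BMP targets were higher on the 2% iron diet than on 50 ppm, and most receptors and sensors were uncalled. The labels name a fiber source only for the 2% diet with cellulose, so iron and the rest of the diet cannot be told apart. Hamp was 3310 TPM, 3843 TPM and 3322 TPM on 2% iron and 849.6 TPM, 1799.9 TPM and 1182 TPM on 50 ppm. Of 13560 genes 2127 were called (15.7%), 1155 higher (8.52%) and 972 lower (7.17%) on 2% iron, with 30.2% at an unadjusted p under 0.05. The BMP/SMAD targets had 7 of 9 called, all higher, with a list median of 1.61. The list of ligands, receptors and sensors had 4 of 18 called: Bmp6, Fgl1 and Fkbp1a rose and Tmprss6 fell by 0.33 (log2, edgeR adjusted p = 0.0249), with a list median of 0.04. Other lists moved as much under the diet. Of the Kupffer cell markers 13 of 15 were called higher (median 1.48), of the erythroid markers 5 of 7 (median 3.66, with 1 called lower), and of the male-biased genes 16 of 16 were called lower (median -3.50). Their part in the diet values was not tested. Bmp6 was 28.7 ± 3.3 CPM against 5.80 ± 1.82 CPM (SD, n = 3 each), a log2 difference of 2.31 (SE 0.24, edgeR adjusted p = 0.000127). The strain groups differed in Bmp6 by 0.19.

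Hamp2 ran with Hamp under the diet, and against it between the strain groups unless the strains of high Hamp2 were left out. It was 97.2, 145 and 152 CPM on 2% iron and 17.4, 35.1 and 30.1 CPM on 50 ppm, a log2 difference of 2.25 (SE 0.61, edgeR adjusted p = 0.0245). Of the 12 genes called between the strain groups, 11 were tested in the diet study and 1, Hamp2, was called there, which is 8.33% of the strain calls and 0.0470% of the diet calls. Kl differed by 0.74 under the diet (SE 0.40, edgeR adjusted p = 0.233). The difference between the diet and the strain effects was not tested, since their tables were made separately.

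The 40 libraries held 10.4 to 20.6 M counts (M, mega). Of 5 library measures (total counts, share of the 10 most abundant genes, mitochondrial share, TMM factor and genes detected) none passed 0.05 after adjustment, by two-sided permutation tests on 20 against 20 libraries. The smallest p was 0.0458 (adjusted 0.229), for the share of counts in the 10 most abundant genes, 21.9 ± 2.0% in the high and 23.2 ± 1.9% in the low strains (SD, n = 20 each).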

How the data were processed

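Liver RNA of the panel and of the diet study was sequenced from a stranded mRNA kit, per the labels' protocols. The authors deposited expected counts (estimated counts, not normalized, 27.4% of them not whole) per gene and mouse. The authors also deposited TPM values, which are scaled for transcript length and library total. Both units were judged from the values and the tables' names. The submitters' processing notes name kallisto 0.46 and mm10. Panel libraries held 9.41 to 20.6 M counts and diet libraries 10.4 to 20.4 M. How differences between strain genomes and the reference enter the counts was not tested.

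Expected counts were rounded and tested with edgeR 4.0.16 (glmQLFit and glmQLFTest, TMM factors, filterByExpr, Benjamini-Hochberg adjustment over all genes tested) in R 4.3.3. All adjusted p-values are two-sided and from edgeR unless another tool is named, and a gene was called under 0.05. Hamp was left out of the panel fits. The 20 high and 20 low strains were fitted alone without covariates. The 73 middle strains were fitted on log2(Hamp TPM + 1), and the 5 diets together. P-values measure the spread between mice of different strains. GENCODE M21 gave symbols and positions for 35612 of 35711 panel identifiers. Scripts were tested on simulated data. Python 3.11.15, scipy 1.17.1, pandas 2.3.3 and matplotlib 3.10.9 were used.

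The members, the gene lists (13 pathways, 11 marker lists) and the rule for named genes were chosen with earlier results of these data known. Named were up to 12 called rises and 12 falls with a mean of at least 1 CPM, called genes within 5 Mb of Hamp, all members of the sensing and BMP target lists and Hamp2. Of each other list, up to 4 called members or else the 2 with the smallest p could be named, predicted genes and pseudogenes aside. Genes outside the rule are given as such. Alternatives were RLE factors, other filters, DESeq2 1.42.0, limma 3.58.1 on log2(TPM + 1) and log2(TPM + 0.1), a family term, single families, 15 or 30 strains a group, other rankings and strains or mice left out. A comparison of the sequences of both transcripts is not reported here.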

Additional observations from a re-analysis of the deposited data

Results flagged for a closer look

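1 gene differed between strain families in its relation to the groups. In a fit of the 35 BXD and other inbred strains among the 40, edgeR tested over 14837 genes whether the difference between high and low strains differed by family, and Cd300ld, a receptor of myeloid cells, was called, with 2093 genes at an unadjusted p under 0.05. The effect in the other inbred strains minus that in the BXD strains was -3.36 (log2, SE 0.59, adjusted p = 0.0332). In the 3 high inbred strains Cd300ld ran from 0.628 to 1.93 CPM, and in the 5 low ones from 2.35 to 18.2 CPM. In the BXD strains it ran from 8.09 to 25.6 CPM in the 13 high and from 5.12 to 18.9 CPM in the 14 low.

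Among 26 small groups of strains (4 or 5 of a family in the high or low set, for Hamp and the 12 called genes), 2 held a strain far from the others. Both were NZB/BlNJ among the 5 low inbred strains. It had 363.6 CPM of Gm43743, and the next highest of the 5 had 1.42 CPM. It had 3708 CPM of Gm13340, and the next had 14.96 CPM. Neither pseudogene was called without NZB/BlNJ. Both thus entered the screen through that strain, and no chance rate applies to them.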

How the results depend on the processing

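No paired analysis was possible because the labels give the strains no shared replicate numbers. The 12 genes called between the groups became 24 with no filter, 7 with at least 10 counts in every library, 4 with 15 strains a group, 2 with strains ranked within families, 1010 with strains ranked by Hamp plus Hamp2, 0 in the other inbred strains alone (3 against 5, 737 at an unadjusted p under 0.05) and 0 with strains of high Hamp2 left out. The other alternatives gave 8 to 12, with DESeq2 calling 10 and limma 9. AXB/BXA strains alone could not be fitted, since none was low. Leaving out single strains (NZB/BlNJ, BXH2/TyJ, BXD19/TyJ, BALB/cByJ) or those of high Hamp2 was chosen after seeing the data.

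Ranked by the sum of both copies, Kl (-1.26), Gm1840 (2.15), Hspb6 (-0.88), Hamp2 (4.49), Fxyd1 (-0.21), Psenen (-0.24), Nudt19 (-0.34), Fam187b (-1.34), Lgi4 (2.01), Bmp6 (-0.095), Saa1 (1.14) and the acute phase median (0.062) changed sign, as that ranking moves low strains of high Hamp2 to the top. With strains of high Hamp2 left out, so did Hamp2 (1.03), Lgi4 (0.80), Gm13340 (0.048), Saa1 (0.84) and the acute phase median (0.11). In BXD strains alone Tmprss6 was -0.0038, and without BALB/cByJ the slope of Dnah17 was 0.27. The cause was not tested. Over alternatives, the called genes kept sign and call in 154 values, lost the call in 84 and changed sign in 13. Uncalled genes stayed uncalled with the same sign in 176 and changed sign in 4.

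The 2 genes called in the 73 strains became 106 with no filter, 4 with a family term, 1 with high Hamp2 left out, and 0 with at least 10 counts, DESeq2, either limma fit, BXD strains alone or without BALB/cByJ. The 2127 diet calls became 1208 and 1161 with limma on log2(TPM + 1) and log2(TPM + 0.1), and 1003 to 2333 with each mouse left out in turn, the former without 50 ppm replicate 1. The diet design has 3 mice a group. With 1 mouse per strain, no spread within a strain is known, and counts under about 1 CPM limit Kl, Lgi4 and Fam187b.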
